A study of Mus musculus with 6 samples.

Results

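The genes described here are 8 genes of salt transport in the thick ascending limb and the distal convoluted tubule: the cotransporter genes Slc12a1 and Slc12a3, the channel genes Kcnj1 and Bsnd, the secreted glycoprotein gene Umod, and the kinase genes Wnk1, Wnk4 and Stk39. Their members in the chromatin data are the distinct accessible intervals that overlap a span from 3 kb upstream of each gene's start to its end, and 202 of the 279569 intervals of the pooled list did so. By the study's methods and labels, the nuclei came from the kidney cortex of mice in which both Acly alleles carry loxP sites (Acly fl/fl). In 3 libraries the mice also carried Ksp-Cre, which recombines broadly in renal tubular epithelium and not in a single segment (Acly cKO), and in 3 libraries they were littermates without Cre (WT). Every library is labelled Control for treatment, and the methods give an age range for the study's mice without naming the mice of these libraries. The labels place WT in batches 1 and 2 and Acly cKO in batches 4 and 5, so genotype and batch cannot be told apart.

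The assay, ATAC-seq, cuts open DNA with the Tn5 transposase, so that stretches free of nucleosomes yield more fragments. The peak list is 1 call whose peak names mark it as made over all libraries. Libraries have no columns of their own in it. Their depths are therefore not known here, replicate error could not be computed, and WT was not compared with Acly cKO. The fold enrichment of a summit is the caller's pileup there over the background that the caller assumed. For that call the methods give no fragment model and a fixed extension. An interval takes the fold enrichment and the -log10 q of its highest summit. The cortex holds many cell types, so a low fold enrichment from few cells of a type and one from weakly open DNA in many cells cannot be told apart.

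In the thick ascending limb, NKCC2, the product of Slc12a1, takes up sodium, potassium and chloride from the urine. ROMK (Kcnj1) returns the potassium to the lumen, and chloride leaves at the blood side through channels that need barttin (Bsnd). In the distal convoluted tubule, NCC (Slc12a3) takes up sodium and chloride. WNK1 and WNK4 phosphorylate the kinase SPAK (Stk39), which phosphorylates and activates both cotransporters. Loss of NKCC2, ROMK or barttin causes Bartter syndrome, loss of NCC causes Gitelman syndrome, and mutations in WNK1 or WNK4 cause a hypertension with high potassium. Uromodulin (Umod) is made in the thick ascending limb and is the most abundant protein of normal urine.

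Reference sequences at starts and summits of these genes are shown here, in windows that are not all alike. They are given for the stretch just upstream of the start, or around a summit, on the strand of the gene in GRCm39, in lower case with matches to the searched motifs in capitals. The windows lie, in order, at chr2:124994275-124994424 (plus strand), chr8:95055679-95055828 (plus), chr7:119078639-119078738 (minus), chr9:32283639-32283788 (plus), chr9:32296355-32296504 (plus) and chr6:120015661-120015810 (minus). The capitals mark CCAAT at Slc12a1. At Slc12a3 they mark the AP-2 site GCCNNNGGC and, nearer to the start, the TATA box TATAAA. At Umod, shown around its summit, they mark the core of the HNF1 site, GTTAAT. The 150 bases upstream of the Umod start, not shown, hold CCAAT and not GTTAAT. At Kcnj1 they mark TATAAA, 106 bases upstream of the start, and, nearer to it, a steroid receptor hexamer, AGAACA read on the other strand. At Wnk1 they mark an AP-2 site.
Slc12a1, 150 bases upstream of the start: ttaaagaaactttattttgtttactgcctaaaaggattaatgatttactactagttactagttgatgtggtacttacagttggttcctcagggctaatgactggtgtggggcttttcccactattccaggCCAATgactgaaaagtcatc
Slc12a3, 150 bases upstream of the start: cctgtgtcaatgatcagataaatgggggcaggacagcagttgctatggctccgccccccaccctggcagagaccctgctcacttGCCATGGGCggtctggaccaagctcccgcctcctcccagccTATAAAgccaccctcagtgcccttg
Umod, 100 bases around the summit: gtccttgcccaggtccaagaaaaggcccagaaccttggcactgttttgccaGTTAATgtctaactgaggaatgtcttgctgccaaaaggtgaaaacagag
Kcnj1, 150 bases upstream of the start: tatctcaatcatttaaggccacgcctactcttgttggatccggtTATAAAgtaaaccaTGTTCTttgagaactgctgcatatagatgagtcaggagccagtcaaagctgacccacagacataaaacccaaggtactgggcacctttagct
Kcnj1-203, 150 bases upstream of its start: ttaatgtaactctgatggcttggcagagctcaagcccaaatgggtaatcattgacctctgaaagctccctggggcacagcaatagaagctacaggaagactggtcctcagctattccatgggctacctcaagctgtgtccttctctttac
Wnk1, 150 bases upstream of the start: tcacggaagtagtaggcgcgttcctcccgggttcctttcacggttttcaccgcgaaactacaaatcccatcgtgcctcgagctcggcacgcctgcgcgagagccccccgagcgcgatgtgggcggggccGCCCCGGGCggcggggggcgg
The 150 bases of Wnk1 hold 22 CpG dinucleotides, those of Slc12a3 hold 3, those of Kcnj1 hold 2, and those of Slc12a1 and Kcnj1-203 hold 0. The window of Wnk1 overlaps an exon of the long noncoding RNA gene Gm66353.

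All 8 genes had an interval within 1 kb of the canonical start, as did 75.8% of 21757 protein-coding genes. The fold enrichment of that interval ran from 8.38 at Slc12a3 to 56.0 at Wnk1, with a median of 22.7 against 19.4 over all protein-coding genes, where a gene without an interval counts as 0. The kinase genes held the upper places, with Wnk1 at 56.0, Stk39 at 42.4 and Wnk4 at 34.0, above 86.7%, 75.6% and 66.6% of protein-coding genes. Bsnd followed at 24.6 and Umod at 20.8, above 55.8% and 51.6% of genes. Kcnj1 at 15.2, Slc12a1 at 8.51 and Slc12a3 at 8.38 lay below the median gene. The kinase genes also had the highest CpG ratios of the 8 genes. Set beside genes of like CpG ratio, the order was another one, as given below.

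The genes also differed in how the intervals were spread. Of the 202 intervals, 41 lay at Slc12a1, 8 at Slc12a3, 8 at Umod, 14 at Kcnj1, 5 at Bsnd, 16 at Wnk1, 12 at Wnk4 and 98 at Stk39, the longest gene at 261935 bp. The highest summit lay in an intron in 170 of them (84.2%) and in coding exons in 9. The regions run along whole genes, and no such share is given for all intervals. This split is therefore not read as a trait of these genes. A fold enrichment of at least 5 was reached by 39 of 202 (19.3%, Wilson 95% interval 14.5% to 25.3%, for counting error only), against 24.5% of all intervals and 24.5% of the intervals at protein-coding genes assigned in the same way. Without Wnk1 and Stk39, a set formed after seeing the data, the share was 22.7%. Weak intervals under 3-fold made up 67.3% of the members' intervals and 59.0% of all intervals, and the median width was 584 bp against 434 bp.

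The strongest interval of a gene overlapped the gene start in 5 of the 8 genes, Umod, Bsnd, Wnk1, Wnk4 and Stk39, against 63.6% of the 18102 protein-coding genes with an interval. At Slc12a1, Slc12a3 and Kcnj1, a summit inside the gene was higher than the start.

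**Figure D1:**
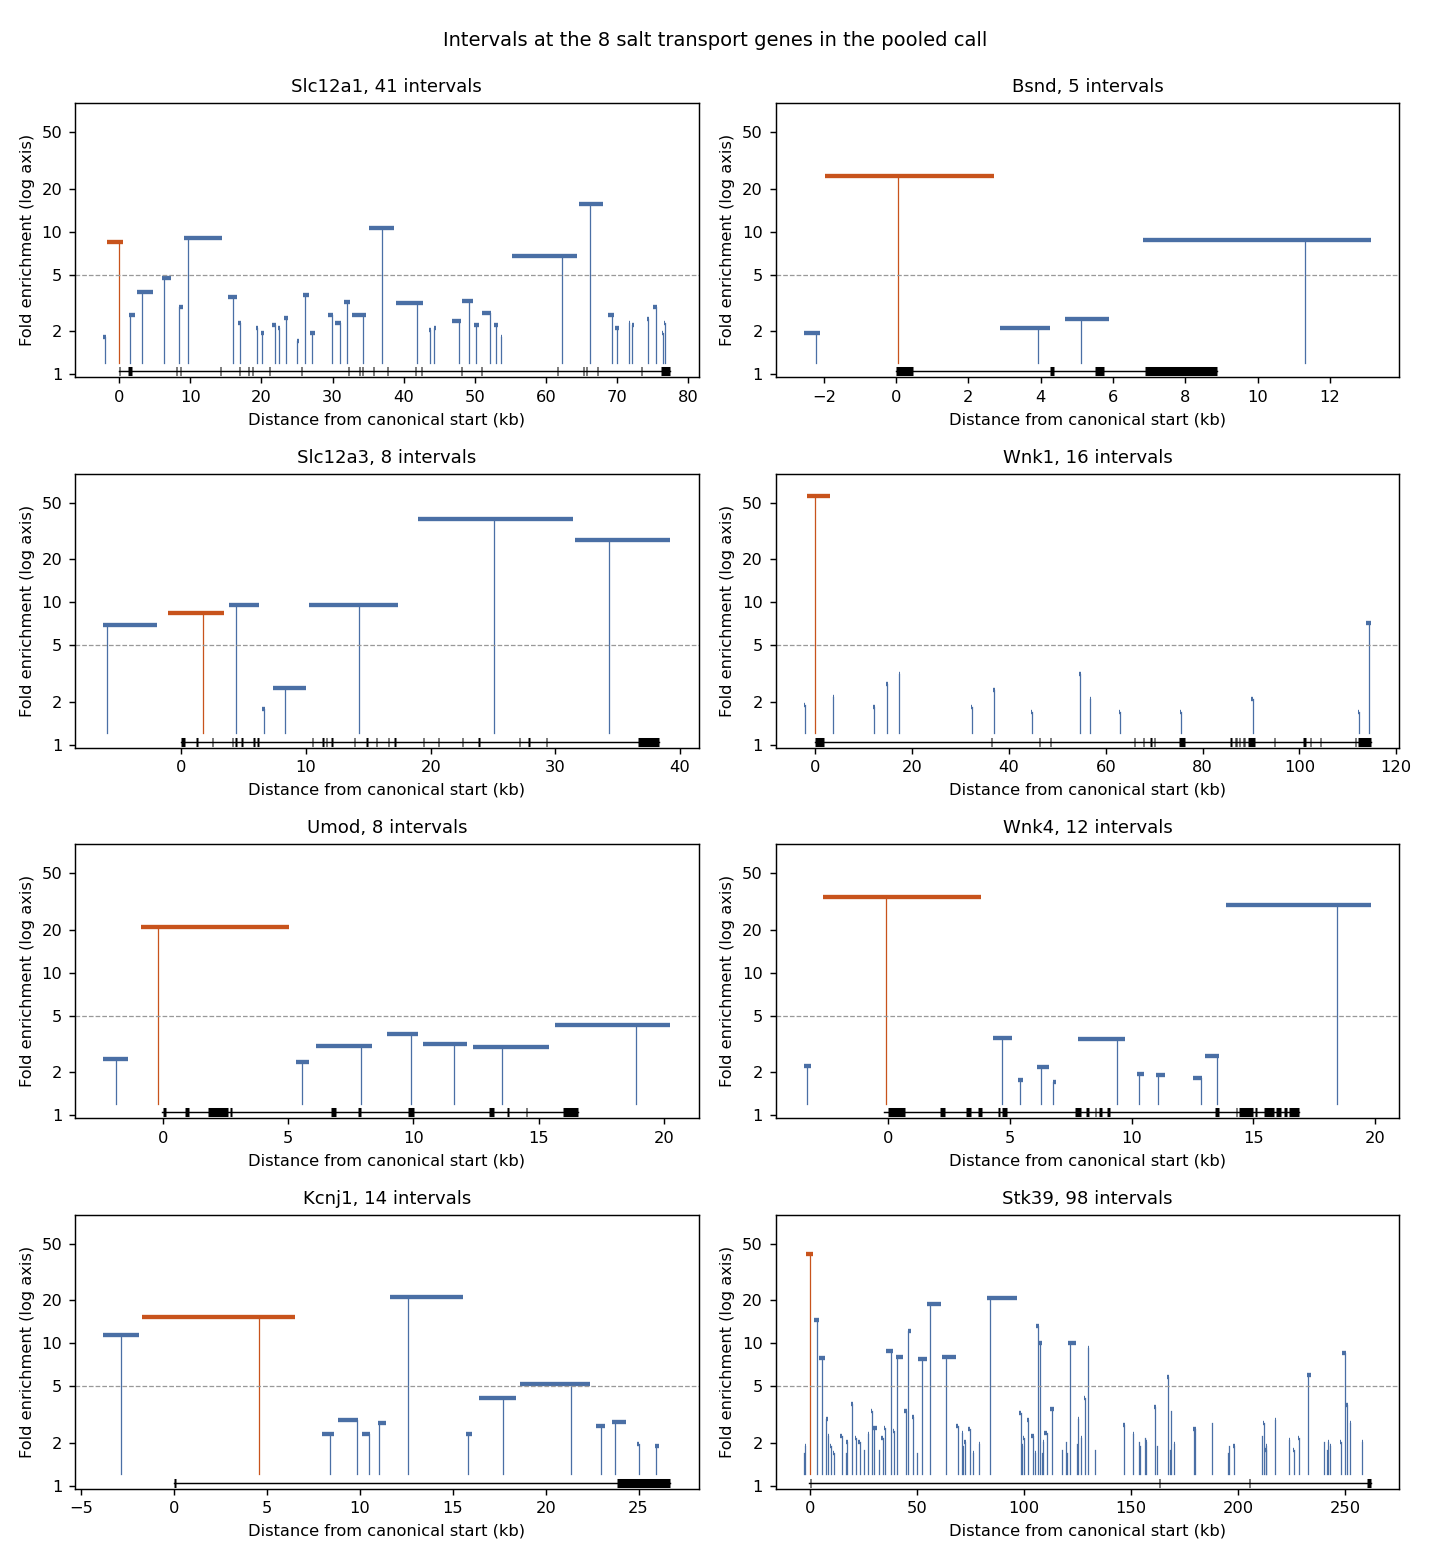
Intervals at each gene by distance from the start of the canonical transcript (kb, in the direction of transcription) and fold enrichment of their highest summit (log axis). Horizontal bars span the interval, thin lines drop from the summit, orange marks the interval at the start, black boxes are exons and the dashed line marks 5-fold. Slc12a1, Slc12a3 and Kcnj1 have a higher bar inside the gene than at the start, while Wnk1 has 56.0 at the start and at most 7.14 elsewhere.

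Slc12a1, the gene of NKCC2, spans chr2:124994425-125071922 on the plus strand and has 27 exons (ENSMUSG00000027202.13). The interval at its start spanned 124992744 to 124994982, with its highest summit 3 bp into exon 1 and a fold enrichment of 8.51 (-log10 q 73.8). The strongest interval, from 125059089 to 125062488, had its highest summit in intron 23, 66.2 kb downstream of the start, at 15.6 (-log10 q 194). The next had their highest summits in intron 14 at 36.9 kb (10.7) and in intron 4 at 9623 bp (8.97), and both were above the start. An interval of 9058 bp had its highest summit, 6.74, in intron 21. The other 36 intervals stayed below 5, down to 1.70. The intron 23 summit, the strongest of the gene, lies in chr2:125060586-125060685 (plus strand), and the capitals mark AGAACA.
Slc12a1, intron 23 summit: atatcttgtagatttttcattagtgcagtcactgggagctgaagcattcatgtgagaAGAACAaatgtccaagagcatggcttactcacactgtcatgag
The intron 14 and intron 21 summit windows also hold AGAACA, a hexamer found in 8.12% of all 100 bp summit windows and in 11.4% of those of the 202 intervals.

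Slc12a3, the gene of NCC, had its highest summits far inside the gene body. It spans chr8:95055829-95094170 on the plus strand, with 25 exons (ENSMUSG00000031766.6). The interval from 95074820 to 95087233, 12414 bp wide with 38 summits, had its highest summit in intron 21, 25.1 kb from the start, at a fold enrichment of 38.2 (-log10 q 691), a -log10 q above that of 97.7% of all intervals. The interval from 95087415 to 95095056 reached 27.2 (-log10 q 432) in intron 24. That summit and another of 27.1 lie at either end of the long noncoding RNA gene Gm64132, 512 bp and 153 bp from its start. Further intervals had their highest summits in intron 13 (9.62) and exon 5 (9.56). The interval at the start reached 8.38 only in intron 2, 1744 bp downstream, and within 1 kb of the start the highest summit, at the start base itself, was 4.39. Of the 8 intervals, 6 reached 5-fold, which gave the highest median of the 8 genes (8.97). Among them, the interval of 6.94 had its highest summit 5953 bp upstream of the start, beyond the 3 kb span. The intron 21 window, shown for the highest summit of the gene, lies in chr8:95080853-95080952 (plus strand) and overlaps an exon of Slc12a3-206, a retained-intron transcript without a coding sequence. None of the searched motifs occurred in it.
Slc12a3, intron 21 summit: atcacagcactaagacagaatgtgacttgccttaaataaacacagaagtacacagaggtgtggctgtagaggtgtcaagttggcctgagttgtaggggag

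Kcnj1 encodes ROMK and has several annotated starts. It spans chr9:32283789-32310493 on the plus strand (ENSMUSG00000041248.10). At the start of the canonical Kcnj1-201 the highest summit, 85 bp upstream, was 8.71, while the interval there reached 15.2 at 4581 bp, in intron 1. Kcnj1-203 starts 12716 bp downstream, in intron 1, and the summit 102 bp upstream of it was the highest of the gene at 21.0 (-log10 q 298, interval 32295409 to 32299335). Kcnj1-202 starts 21471 bp downstream and had a summit of 5.17 at 131 bp upstream (-log10 q 30.1). Each annotated coding start had a summit within 500 bp, and the internal start of Kcnj1-203 had the highest. The region of Kcnj1 held 75 summits in 29705 bp, so a summit that near is common there and is not particular to the starts. A further interval, from 32280004 to 32281909, reached 11.5 at 2847 bp upstream of the gene. The stretch shown above for the canonical start carries TATAAA at 106 bases and AGAACA at 92 bases upstream, and a further TATAAA lies at 198 bases, beyond that stretch, while the stretch before Kcnj1-203 carries none of the searched motifs.

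Bsnd, the gene of barttin, is the shortest at 8885 bp, at chr4:106340653-106349537 on the minus strand (ENSMUSG00000025418.9). Its start interval spanned 106346826 to 106351506, with the highest summit 47 bp into exon 1 at 24.6 (-log10 q 376) and another summit of 13.7 inside intron 1. An interval of 6317 bp over the 3' end, from 106336403 to 106342719, reached 8.77, with its highest summit beyond the gene end. The other 3 intervals had fold enrichments of 1.96 to 2.42.

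Umod was most open just upstream of its start. The gene spans chr7:119061934-119078505 on the minus strand (ENSMUSG00000030963.7). The interval from 119073467 to 119079346 peaked at 20.8 (-log10 q 296), 206 bp upstream of the canonical start. The GTTAAT capitalised above lies 204 to 199 bases upstream of the start, beside that summit. GTTAAT occurred in the promoter, from 250 bases upstream to 50 bases downstream, of 6.88% of protein-coding genes and in 1 of the 8 genes. Within the same interval, summits of 9.17, 8.97 and 8.90 lay inside the gene. The other 7 intervals stayed below 5, the highest of them (4.26) with its summit beyond the 3' end, 1090 bp from the start of Gp2. Upstream of Umod, 32.1 kb from the start and within the neighbouring gene Pdilt, an interval from 119110095 to 119114385 reached 46.5 (-log10 q 901). It was higher than any interval assigned to Umod.

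Wnk1, the gene of the kinase at the head of the cascade, was open at its start and little elsewhere. It spans chr6:119900930-120015660 on the minus strand (ENSMUSG00000045962.18). The start interval, 120012720 to 120017315, peaked 84 bp upstream at 56.0 (-log10 q 1155), a -log10 q above that of 99.1% of all intervals, and a summit of 31.4 lay 113 bp from the start of Gm66353. The only other interval of at least 5 lay in the 3' UTR of exon 28, at 7.14. The remaining 14 intervals had values of 1.70 to 3.14. The kidney is known to make a short WNK1 without the kinase domain from a start in intron 4. Intron 4 held 3 intervals, with the highest at 3.14 (119960834 to 119961167). The annotated transcript Wnk1-201, which has no defined coding sequence, starts in intron 4. The highest summit within 500 bp of that start, 446 bp upstream, was 2.10. Whether Wnk1-201 is the kidney form is not stated in the annotation.

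Wnk4 encodes a WNK kinase of the distal nephron. It spans chr11:101151246-101168235 on the plus strand (ENSMUSG00000035112.19). The start interval, 101148718 to 101155208, held 18 summits, with 34.0 at 57 bp upstream of the canonical start (-log10 q 591) and 31.4 farther upstream. The interval over the 3' end reached 29.7 (101165251 to 101171198), but its highest summit lay 91 bp from the start of Cntd1 and beyond the end of Wnk4. The other 10 intervals ran from 1.70 to 3.47. The second summit of the start interval lies in chr11:101150807-101150906 (plus strand), shown because it stands apart from the annotated start and nearly equals the first, and no searched motif matched.
Wnk4, upstream summit: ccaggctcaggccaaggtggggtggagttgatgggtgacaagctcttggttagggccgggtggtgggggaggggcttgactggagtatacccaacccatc

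Stk39, the gene of SPAK, carried 98 intervals, of which 17 reached 5-fold. It spans chr2:68040789-68302723 on the minus strand (ENSMUSG00000027030.17). The start interval, 68300992 to 68304375, peaked 276 bp into exon 1 at 42.4 (-log10 q 797). The strongest interval inside the gene, 68205876 to 68220048 in intron 5, was 14173 bp wide, the widest of the 202, and reached 20.8 at 84.3 kb. The highest summit lay in intron 1 in 28 intervals, of which 7 reached at least 5, among them 18.9 at 56.4 kb and 14.6 at 3392 bp. The highest summits in introns 8 and 10 were 13.3 and 10.0. Within the wide intron 5 interval, Stk39-208, a transcript without a defined coding sequence, starts 15 bp from a summit of 9.10. The highest summit of that interval lies in chr2:68218321-68218420 (minus strand), and the capitals mark GTTAAT.
Stk39, intron 5 summit: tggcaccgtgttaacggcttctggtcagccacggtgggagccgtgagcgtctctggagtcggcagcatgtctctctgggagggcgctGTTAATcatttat

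The share of a gene region inside intervals was high in 7 of the genes and low in Wnk1. Slc12a3 was covered over 90.0% of its region, Umod over 84.6%, Bsnd over 82.4%, Kcnj1 over 79.4%, Wnk4 over 73.2%, Slc12a1 over 64% and Stk39 over 38.6%. Among protein-coding genes whose region was within 1.5 times the same length, these shares lay above those of 98.8% of genes for Slc12a3, 95.9% for Kcnj1, 95.9% for Slc12a1, 94.3% for Umod, 92.0% for Stk39, 89.2% for Wnk4 and 86.8% for Bsnd. At Wnk1 the share was 7.78%, above 37.2% of genes of like length. With intervals of q under 1e-05 alone, a setting added after seeing the data, these percentiles ran from 80.6% for Bsnd to 98.9% for Slc12a3, with Wnk1 at 33.7%. Wide intervals of low enrichment count in full in this measure.

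**Figure D2:**
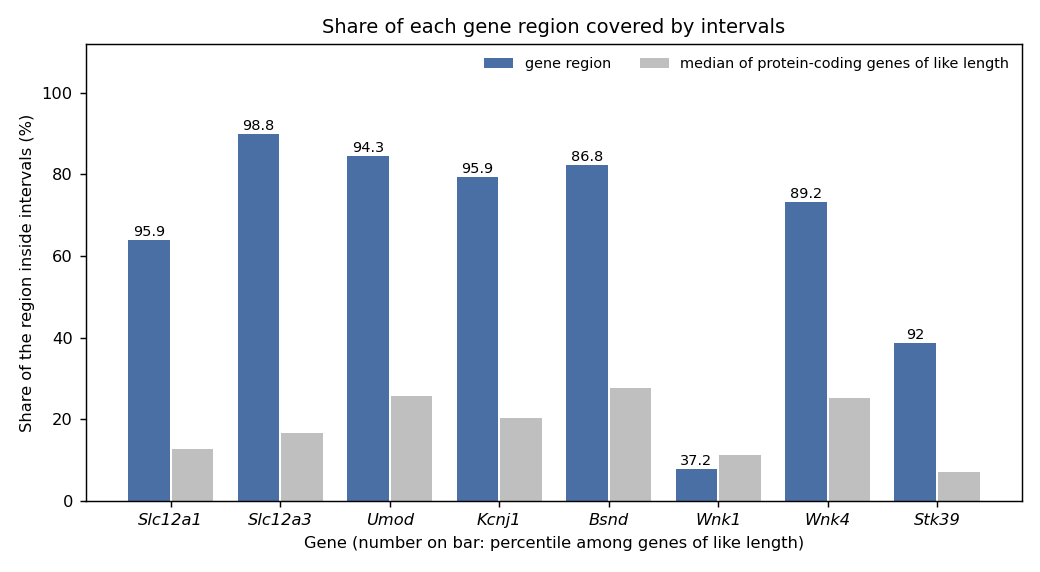
Share of each gene region (3 kb upstream of the start to the gene end) that lies inside intervals, in percent, for each gene (blue) and as the median of protein-coding genes of like length (grey). Numbers on the bars are percentiles among those genes. The blue bars run from 38.6% to 90.0% in 7 genes and stand above the grey bars, while Wnk1 is at 7.78% against 11.2%.

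Starts rich in CpG dinucleotides are open in most tissues, while CpG-poor starts belong more often to genes of single cell types. The CpG ratio, observed over expected within 500 bp of the start, was 0.0217 at Umod, 0.216 at Kcnj1, 0.248 at Bsnd, 0.262 at Slc12a1 and 0.316 at Slc12a3, and 0.529 at Wnk4, 0.850 at Wnk1 and 0.949 at Stk39, against a median of 0.575 over all protein-coding genes. Of the 8193 genes with a ratio under 0.4, 40.8% had a summit within 1 kb of the start and 20.9% one of at least 5-fold. Of the 10378 genes with a ratio of at least 0.6, the shares were 98.7% and 95.3%. The start summits were then set beside genes whose ratio lay within 0.1, a comparison added after seeing the data. Umod (20.8) lay above 99.1% of such genes, Bsnd (24.6) above 93.9%, Kcnj1 (8.71) above 85.8%, Slc12a1 (8.51) above 79.6% and Slc12a3 (4.39) above 59.5%. Wnk1 lay above 73.4%, Wnk4 above 70.7% and Stk39 above 50%. In this comparison the order of the kinase genes and the CpG-poor genes was no longer that of the fold enrichments. No test was made, and the percentiles carry no error.

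**Figure D3:**
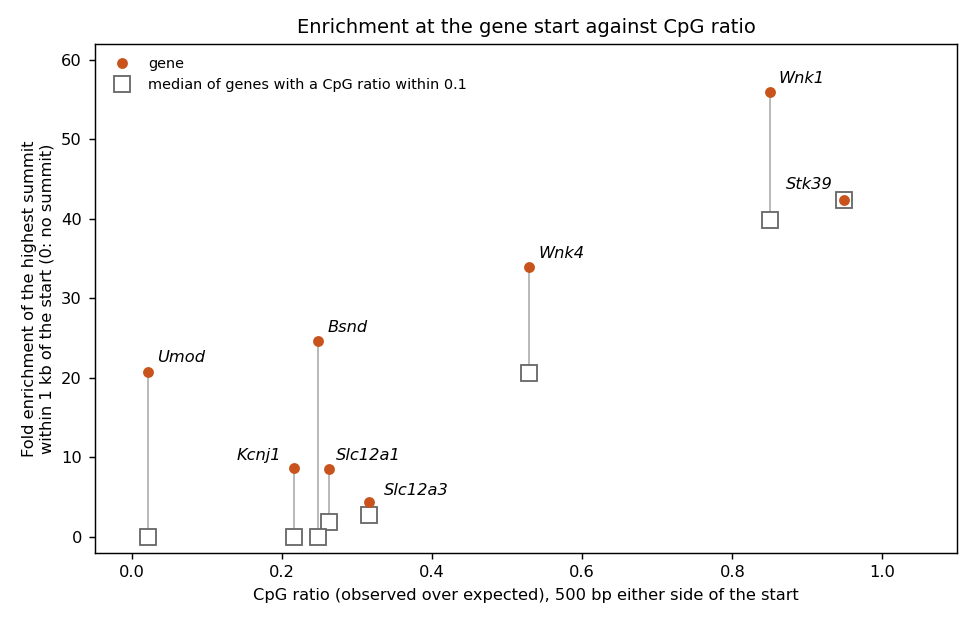
Fold enrichment of the highest summit within 1 kb of each start against the CpG ratio within 500 bp of it. Orange points are the 8 genes and open squares the median of protein-coding genes with a CpG ratio within 0.1. Umod at 20.8 and Bsnd at 24.6 stand over medians of 0, and Stk39 at 42.4 lies on its median.

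Between the genes and their neighbours, other strong intervals lay away from protein-coding starts, within 50 kb of the gene regions. Besides the interval in Pdilt, the highest was one of 47.6 at 48.6 kb from the start of Slc12a3, beyond its 3' end (chromosome 8, 95101887 to 95107168). Upstream of Slc12a3 an interval in Nup93 reached 20.7, upstream of Bsnd one in Tmem61 reached 16.7, and upstream of Wnk4 one reached 13.8. The highest around Slc12a1 was 7.33, around Stk39 6.02 and around Wnk1 3.60. Which gene any of these intervals acts on was not measured.

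The motifs searched occurred in the members' windows about as often as in all windows. In the 200 bp around the highest summits, GTTAAT occurred on either strand in 5.45% of 202 windows (Wilson 95% interval 3.07% to 9.49%) against 7.30% of all windows. AAGGTCA, the ERR site, occurred in 3.96% against 5.81%, GCCNNNGGC in 7.92% against 7.64%, AGAACA in 16.3% against 16.6%, TATAAA in 8.42% against 6.81% and CCAAT in 20.8% against 22.8%. For each of these 6 motifs, the share over all windows lay inside the Wilson interval of the members' share. That interval covers counting error only. Of the 202 windows, 98 came from Stk39 and 41 from Slc12a1, so they are not independent. The full HNF1 site, GTTAAT followed after 1 base by its reverse complement, and the GRHL site AACCGGTT occurred in 0 of 202 windows, against 0.0114% and 0.0916% of all windows, and GTTAAT is part of the full HNF1 site. In promoters, TATAAA occurred in Slc12a3 and Kcnj1 and in 13.2% of all genes, GCCNNNGGC in Slc12a3, Umod, Wnk1 and Wnk4 and in 16.9%, AGAACA in Kcnj1 and in 17.0%, and CCAAT in Slc12a1, Slc12a3 and Umod and in 39.9%. At Slc12a3, TATAAA lay 25 to 20 bases upstream of the start.

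Lists of related genes were read in the same way, by the interval within 1 kb of the start. The channel and transporter partners of the 8 genes had a median of 28.3, with all 6 at 5 or more, against 66.2% of protein-coding genes. The value is that of the whole interval, whose highest summit can lie farther than 1 kb from the start. Atp1b1 (71.4), of the sodium pump, and Slc12a2 (53.4), the cotransporter gene related to Slc12a1, were highest, and Fxyd2 (18.9), a modulator of the sodium pump, and Slc9a3 (21.3), the sodium-proton exchanger, were lowest. The regulators of the WNK and SPAK cascade had a median of 46.1, with 9 of 10 at 5 or more. Cul3 (63.5), of the ubiquitin ligase that removes WNK kinases, and the kinase gene Sgk1 (57.7) were highest. Klhl3, the adaptor of that ligase, had 11.3 at its start and 36.1 at its strongest interval, and Wnk3 had no interval. Among transcription factors of the distal nephron all 10 reached 5, from Tfap2b (14.6, and 6.02 at the highest summit within 1 kb) and Irx1 (16.9) to Tfcp2l1 (50.3) and Nr3c2 (89.7), the gene of the mineralocorticoid receptor.

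Marker genes of the segments were lower at their starts. Thick limb markers had a median of 13.9, with 5 of 6 at 5 or more, from Casr (4.39), the calcium-sensing receptor, and Cldn16 (8.05), a claudin of the paracellular path, to Cldn10 (14.9) and the prostaglandin receptor Ptger3 (27.4). Distal convoluted tubule markers had a median of 7.66, with 4 of 6 at 5 or more, a share near that of all protein-coding genes, from Slc8a1 (2.75), the sodium-calcium exchanger, and Pvalb (3.47) to Calb1 (18.4) and Sall3 (22.8). Casr and Slc8a1 had stronger intervals inside their regions, at 28.0 and 33.5, the layout seen at Slc12a3. That layout was not particular to these segments. In the lists of the next paragraph, Pecam1, Alb and Slc22a8 also had strongest intervals well above their starts, at 14.8, 21 and 14.3.

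Markers of other cells of the cortex were read by the same interval. The lists were not matched for CpG ratio, so their medians do not measure how many cells of a type were present. Proximal tubule markers, from the most numerous cells of the cortex, had a median of 15.1, with Lrp2 (33.1) and Slc27a2 (29.8) highest, Slc22a6 at 5.30 and Slc22a8 without an interval at its start. Collecting duct markers had a median of 4.42, from Slc4a1 (no interval) and Atp6v1g3 (3.54) to Aqp3 (17.0) and Hsd11b2 (23.0). Podocyte markers had a median of 13.6, with Synpo (29.5) and Podxl (17.4) highest and the slit diaphragm gene Nphs1 (3.14) and Wt1 (9.76) lowest. Endothelial markers had a median of 3.47, from Pecam1 (2.03) and Emcn (2.75) to Cdh5 (4.12) and Kdr (8.64). Immune markers had a median of 2.39, with Cd3e without an interval and Ptprc at 1.90, and with Cd68 (31.2) and Csf1r (27.6) highest. Within 1 kb of the start, the highest summits of Cd68 and Csf1r were 11.2 and 3.08. Genes of other organs had a median of 0.982, and 0 of 8 reached 5 at the start, with Ins2 at 3.40, Alb at 2.95, and Myh6 and Prm1 without an interval there. Elsewhere in their regions these genes were not all closed. The strongest interval was 21 at Alb and 6.81 at Myh6, while Ins2 stayed at 3.40 and Prm1 had none. All 8 salt transport genes, and 69.3% of protein-coding genes, lay above the highest start value of that last list.

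**Figure D4:**
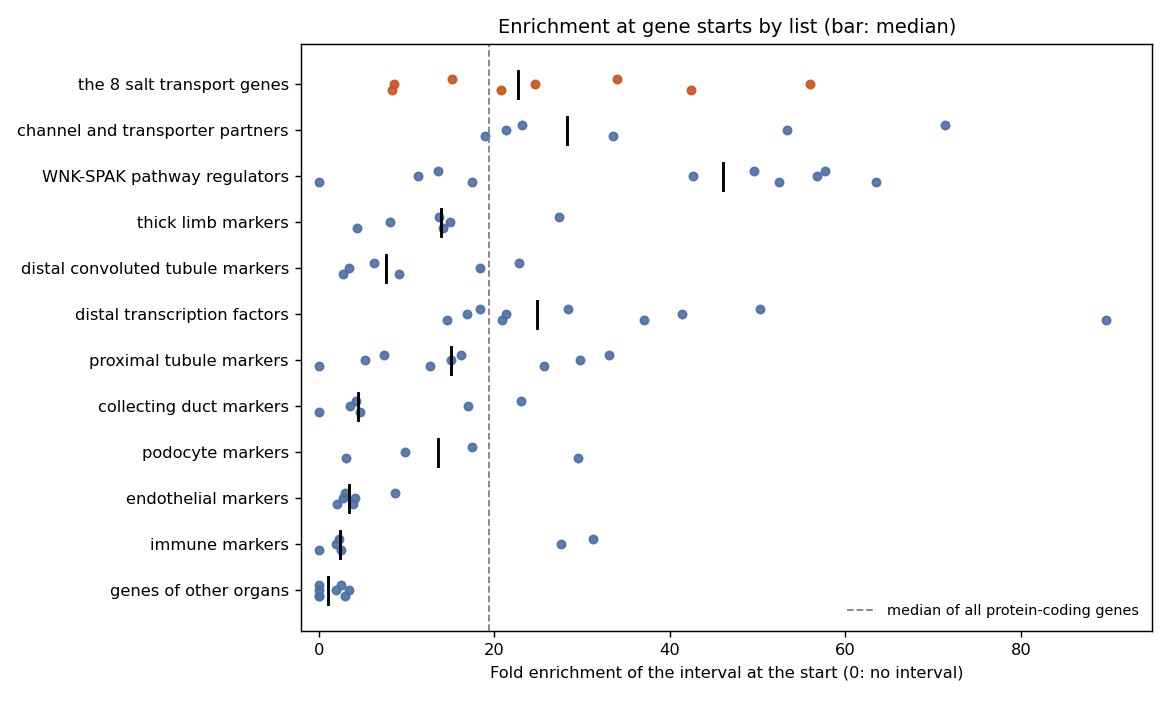
Fold enrichment of the interval within 1 kb of the start for each gene of each list (points, 0 where there was no interval), with the list's median as a black bar and the median of all protein-coding genes (19.4) as a dashed line. The 8 salt transport genes lie between 8.38 and 56.0, and the genes of other organs at 3.40 or below.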

How the data were processed

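ATAC-seq libraries were grouped by their genotype labels into 3 WT and 3 Acly cKO. Per their methods, the authors used fastp for trimming, Bowtie2 2.3.4.3 for alignment to mm39, and MACS3 3.0.0 for the call at a q of 0.05 with summits. Duplicates and reads without a unique position had been dropped before the call, and blacklisted sequence and extra contigs were taken out afterwards with BEDTools 2.29.1. The study's pool may also hold earlier WT libraries not analysed here, since the files do not name its libraries. The deposited fold enrichment is a linear ratio computed by the authors' caller, the deposited -log10 q is that caller's value, and the distance of each summit from its interval's start is also deposited. The list before filtering held 874 further summits, 0 of them in the regions described.

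Rows were joined into distinct intervals, and coordinates are on GRCm39, counted from 1. Starts, exons and transcripts came from GENCODE M39, and sequences from its genome. Promoter tables of another build were not used. A summit's motifs were matched exactly on both strands. Shares carry Wilson intervals at 95% confidence, which cover counting error only. With a single pooled column no test was made, and all values are descriptions. The genes, their lists and the motifs were chosen with earlier results of these data known. Some genes of these lists and the sequence before 1 start are not reported here, and list values are over the remaining genes. The genes named are the 8 and, from each list, those with the 2 highest and the 2 lowest values at the start. The intervals named first are the start interval and the next 3 of each gene by q, and others were named after their values were seen. Code was checked on 14 cases with known answers and run with Python 3.11.15, numpy 2.4.6, pandas 2.3.3, scipy 1.17.1 and pysam 0.24.0.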

Additional observations from a re-analysis of the deposited data

How the results depend on the processing

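No paired analysis was possible because libraries have no columns in the pooled call, and for the same reason no replicate could be left out. The 202 intervals became 100 at a q under 1e-05, 39 at a fold enrichment of at least 5, and 844 when summits were counted, as these sets are subsets or finer units. At a q under 1e-05 the share within 1 kb of a member start was 8.00% in place of 3.96%, and the share of at least 5-fold 39% in place of 19.3%, because weak intervals dropped out. Widening the regions to 10 kb on either side gave 245 intervals, 3.27% and 21.6%. Keeping only intervals with their highest summit in the region gave 197, 4.06% and 18.3%. The share within 1 kb counted 8 intervals in each setting, so it only followed the number of intervals. The count of 5 genes with the strongest interval at the start was the same when ranked by fold enrichment, with wider regions, with the canonical start and with summits inside the region, a setting added after seeing the data. The median at the start, 22.7, was 22.8 over any protein-coding start, where Kcnj1 took 21.0, and 22.7 with the highest summit within 1 kb (also added), where Kcnj1 took 8.71 and Slc12a3 4.39. Of 32 counts for single genes, 17 moved beyond 1.5 times, and of 16 motif shares 5 left the counting interval. The pooled depth and the spread between animals are unknown.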
